A study of Mus musculus with 12 samples.

Results

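The 10 genes described here control the entry of pyruvate into the mitochondrial citric acid cycle: the 4 pyruvate dehydrogenase kinases Pdk1, Pdk2, Pdk3 and Pdk4, the 2 catalytic phosphatase subunits Pdp1 and Pdp2, and 4 subunits of the complex itself, Pdha1, Pdhb, Dlat and Pdhx. They were followed in cultured mouse embryonic fibroblasts that lacked either component of telomerase. The genes were taken by name, each through the probe set annotated with that symbol alone, and each of the 10 had exactly 1 such probe set among the 19938 genes so represented on the array. Pdk4 heads the group because its signal in the mTR WT cultures was above that of every other culture. Those values therefore chose it, and wherever the mTR WT cultures enter a comparison the Pdk4 values below are a description and carry no test.

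The complex converts pyruvate to acetyl-CoA in the mitochondrial matrix. The kinases phosphorylate its E1 alpha subunit, Pdha1, and switch the complex off, and the phosphatases remove the phosphate and switch it back on. Pdk4 is the isoform best known for induction on fasting, by glucocorticoids and by fatty acids, through FOXO and PPAR transcription factors. Pdk1 is a known target of the hypoxia-inducible factor HIF-1. Cultured fibroblasts rely strongly on glycolysis, so the kinases are of interest there as a valve between lactate production and mitochondrial oxidation.

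Telomerase is a reverse transcriptase, mTERT, that copies an RNA template, mTR. There were 4 groups of 3 cultures: mTERT knockout (mTERT KO), mTERT wild type (mTERT WT), mTR knockout (mTR KO) and mTR wild type (mTR WT). Every culture came from male C57BL/6J embryos at stage E12.5-14.5, was untreated, and was analysed at passage 5. The knockouts were of generation 1, labelled G1. Knockout and wild-type embryos of a line were littermates, but the labels do not say which cultures shared a litter. All 12 cultures were grown in the same serum-containing medium, and total RNA from each was hybridised to 1 Affymetrix array. In such bulk RNA, fewer cells of a type and less RNA per cell cannot be told apart.

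The deposited values were log2 signals for 28853 probe sets, running from 3.19 to 14.2, with array medians between 5.46 and 5.50. Correlations between arrays lay between 0.984 and 0.997. As a check of the labels, Tert measured 4.99, 4.83 and 4.75 in the mTERT KO cultures and 5.51 to 5.80 in the other 9. Terc, the gene of mTR, was between 4.50 and 4.94 in all 12 cultures, below the background level of every array, so its probe set checks nothing about the mTR KO label. The background level was taken as the 95th percentile of 1035 odorant receptor probe sets and was 4.93 to 5.09 per array. Fibroblast markers were well above it in every culture, with means of 9.95 to 11.1 over 10 genes. Macrophage markers were present too, with all 14 above background on average and list means of 6.64 to 9.50. Only 2 of 10 epithelial and endothelial markers were above background on average.

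Both members whose 3 mTR WT arrays lay above all 9 others, Pdk4 and Pdk2, are shown with the 250 bases before their annotated start, since FOXO, PPAR and glucocorticoid sites are the known routes of Pdk4 control. The sequences are RefSeq's on GRCm38.p6, both from the minus strand, written 5′ to 3′. Capitals mark a CCAAT box read on the opposite strand (ATTGG) and, in Pdk2, the palindrome CACGTG, which holds the HIF core ACGTG on both strands. Pdk4 lies at chr6:5496279-5496528 and Pdk2, at its first listed start, at chr11:95041372-95041621.
Pdk4: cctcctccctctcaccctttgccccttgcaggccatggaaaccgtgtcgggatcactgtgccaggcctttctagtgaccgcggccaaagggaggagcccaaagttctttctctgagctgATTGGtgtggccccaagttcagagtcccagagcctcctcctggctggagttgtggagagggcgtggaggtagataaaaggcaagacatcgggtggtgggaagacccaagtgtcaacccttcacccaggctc
Pdk2: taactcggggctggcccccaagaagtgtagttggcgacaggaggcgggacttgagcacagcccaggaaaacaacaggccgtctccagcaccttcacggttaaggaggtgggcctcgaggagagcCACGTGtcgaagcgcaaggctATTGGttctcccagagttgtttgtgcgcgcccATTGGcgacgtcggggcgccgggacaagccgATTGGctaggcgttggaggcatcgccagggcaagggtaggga

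The Pdk4 window had a GC content of 58.8% and 1 CCAAT box, whose first base lay at position -131 from the start. The Pdk2 window had a GC content of 62.4% and 3 CCAAT boxes, at -105, -73 and -42. A CCAAT box was present in 33.8% of all 32851 promoter windows of this length, searched on both strands. Neither window held the FOXO core GTAAACA (3.17% of all windows) or the PPAR direct repeat of 2 hexamers (0.0335%). Both also lacked the glucocorticoid half-site AGAACA (16.1%) and the TATA box TATAAA (12.4%). The HIF core ACGTG, in 16.6% of all windows, was in this Pdk2 window and not in that of Pdk4. The window at the other listed Pdk2 start held none of the motifs searched, the HIF core and the CCAAT box included. These matches describe letters in a short window only. RefSeq windows were matched for 9 of the 10 genes, with 11 windows in all; Pdp1 was the gene without one.

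Pdk4 measured 7.11, 6.92 and 7.20 in the mTR WT cultures. In the mTR KO cultures it measured 6.31, 6.06 and 6.38. All 3 mTR WT values were above all 3 mTR KO values, and the means, 7.08 ± 0.14 and 6.25 ± 0.17 (SD, n = 3 each), were 0.83 apart on the log2 scale, a 1.77-fold lower signal in the knockout. Pdk4 measured 6.36, 6.34 and 6.34 in the mTERT WT cultures, the tightest of its 4 groups. In the mTERT KO cultures it measured 6.16, 6.54 and 6.47. The mTERT WT and mTERT KO values thus interleaved, with means of 6.35 ± 0.010 and 6.39 ± 0.20 (SD, n = 3 each). In order of group means Pdk4 was highest in mTR WT, followed by mTERT KO, mTERT WT and mTR KO, and the ranges of the 3 lower groups overlapped.

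No culture lay between mTR WT and the rest. The lowest mTR WT culture was at 6.92 and the highest of the other 9 at 6.54, a gap of 0.38. The 9 other cultures spanned 0.48. That gap was the third largest among 28853 probe sets, and a gap of any size in this direction was found for 391 of them (1.36%). The mean over mTR WT was 1.68-fold that over the other 9 cultures. Leaving out any 1 array or changing the processing kept the mTR KO minus mTR WT difference between -0.94 and -0.73. These values include the mTR WT cultures that chose Pdk4, so neither the rank of the gap nor this range is a test.

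The comparisons that did not use mTR WT gave no Pdk4 difference beyond the spread between cultures. The mTERT KO minus mTERT WT difference was 0.04 ± 0.11 (SE), with a 95% interval of -0.21 to 0.29 (limma adjusted p = 1; exact permutation test, two-sided, p = 0.9). By culture number the mTERT differences were -0.20, 0.20 and 0.12, so that 1 of the 3 pairs ran the other way. The mTERT KO minus mTR KO difference was 0.14 ± 0.11 with an interval of -0.11 to 0.39 (limma adjusted p = 0.9999; exact permutation test, two-sided, p = 0.4), and it was 0.04 without mTR KO culture 2 and 0.25 without mTERT KO culture 1. With 3 cultures against 3 the exact test cannot go below 0.1. Neither test took culture numbers as pairs, so the errors include the variation that same-numbered mTERT cultures share. Between the wild types, Pdk4 was 0.73 lower in mTERT WT than in mTR WT, a 1.66-fold difference.

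**Figure D1:**
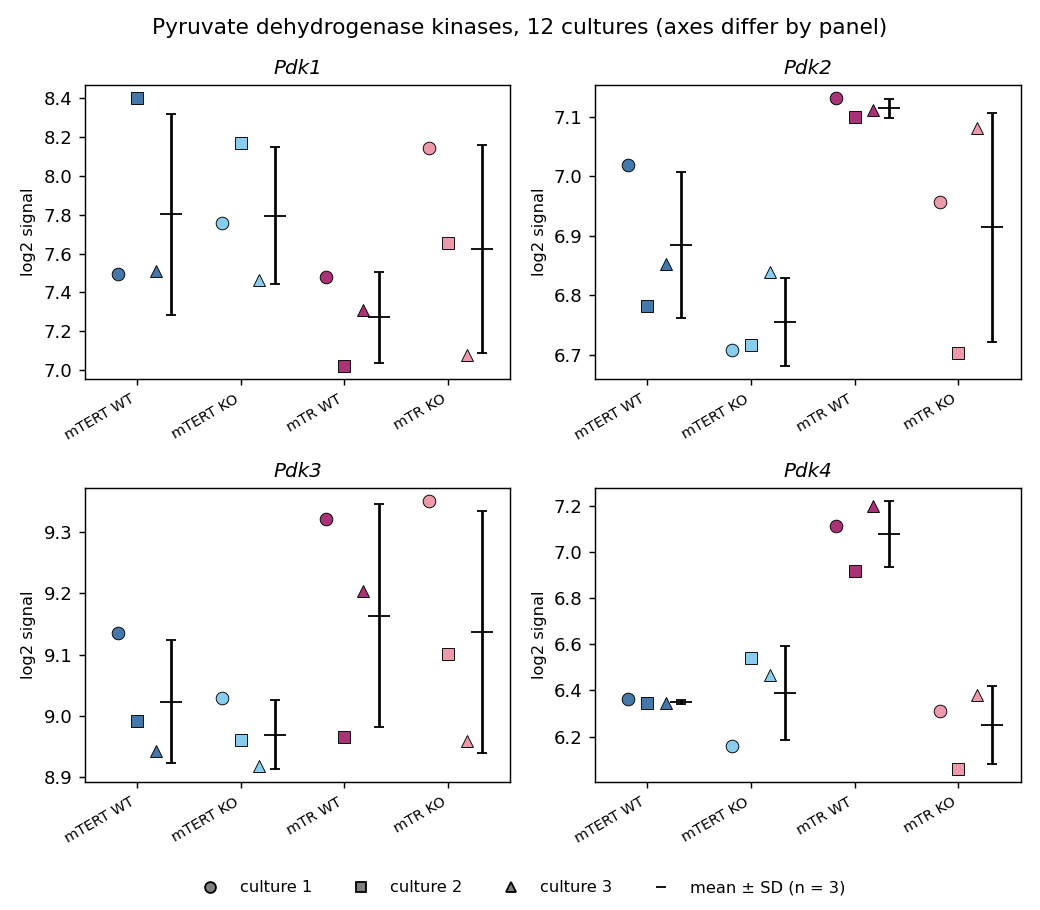
Log2 signal of Pdk1, Pdk2, Pdk3 and Pdk4 in each of the 12 cultures, 1 panel per gene with its own axis; marker shapes give the culture number and the bars show mean ± SD of the 3 cultures in a group. Pdk4 in the mTR WT cultures (6.92 to 7.20) stands clear of the other 9 (6.06 to 6.54), while Pdk1 runs from 7.02 to 8.40 with overlap between knockout and wild type.

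Pdk2, the kinase with the widest tissue distribution, was also highest in mTR WT, by a much smaller margin. It measured 7.13, 7.10 and 7.11 in mTR WT, the narrowest group of any member apart from Pdk4 in mTERT WT. In mTR KO it measured 6.96, 6.70 and 7.08. The groups did not overlap, but the highest mTR KO culture came within 0.018 of the lowest mTR WT culture. Pdk2 was 0.20 ± 0.10 (SE) lower in mTR KO than in mTR WT, a difference that did not pass (limma adjusted p = 0.839). That difference was -0.09 without mTR KO culture 2. Pdk2 measured 7.02, 6.78 and 6.85 in the mTERT wild type and 6.71, 6.72 and 6.84 in the mTERT knockout, and these ranges overlapped. The mTERT KO minus mTERT WT difference was -0.13 ± 0.10 (limma adjusted p = 1), and it was -0.06 without mTERT WT culture 1. Against mTR WT, mTERT WT was lower by 0.23, with an interval of -0.44 to -0.02 (limma adjusted p = 0.694). Pdk2 was the only other member with all 3 mTR WT cultures above the remaining 9 (1.36% of all probe sets), at 1.20-fold their mean. Averaged over both lines, the knockout effect on Pdk2 was -0.16 ± 0.07, with a limma adjusted p = 0.985; no probe set passed in that comparison (0%).

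Pdk1 varied more between cultures than any other member. It measured 7.50, 8.40 and 7.51 in the mTERT wild type and 7.76, 8.17 and 7.46 in the mTERT knockout. Culture 2 was the highest in both groups, and the difference between the group means was -0.01 ± 0.30 (SE, limma adjusted p = 1). It measured 7.48, 7.02 and 7.31 in the mTR wild type and 8.15, 7.65 and 7.08 in the mTR knockout. Those groups overlapped, with mTR KO 0.35 ± 0.30 higher and an interval of -0.31 to 1.01 (limma adjusted p = 0.859). The value depended on single cultures, being 0.09 without mTR KO culture 1 and 0.63 without mTR KO culture 3. Every mTERT WT culture was above every mTR WT culture, by a mean of 0.53 ± 0.30 (limma adjusted p = 0.805), which dropped to 0.23 without mTERT WT culture 2. Pdk1 thus lay lowest in mTR WT, the group in which Pdk4 lay highest.

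Pdk3, encoded on the X chromosome, overlapped between all groups. It measured 9.14, 8.99 and 8.94 in the mTERT wild type and 9.03, 8.96 and 8.92 in the mTERT knockout. It measured 9.32, 8.97 and 9.20 in the mTR wild type and 9.35, 9.10 and 8.96 in the mTR knockout. Each knockout overlapped its wild type, with differences of -0.05 ± 0.11 in the mTERT line (limma adjusted p = 1) and -0.03 ± 0.11 in the mTR line (limma adjusted p = 0.978). The mTERT difference was below 0 at all 3 culture numbers, from -0.11 to -0.02.

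Of the phosphatases, Pdp1, the calcium-stimulated isoform, measured 7.29, 7.87 and 7.20 in the mTERT wild type and 7.48, 7.91 and 7.20 in the mTERT knockout. It measured 7.72, 7.83 and 7.60 in the mTR wild type, against 8.11, 8.06 and 7.50 in the knockout. The groups overlapped in both lines. The knockout differences were 0.08 ± 0.22 for mTERT (limma adjusted p = 1) and 0.17 ± 0.22 for mTR (limma adjusted p = 0.910). The mTR value was 0.059 without mTR KO culture 1 and 0.37 without mTR KO culture 3, and the mTERT value was -0.11 without mTERT KO culture 2 and 0.29 without mTERT WT culture 2. The largest Pdp1 contrast was between the knockouts, with mTERT KO 0.36 ± 0.22 below mTR KO, and it did not pass (limma adjusted p = 0.9999). It was -0.19 without mTERT KO culture 3 and -0.56 without mTR KO culture 3. Pdp2, the insulin-responsive isoform, was close to background and exceeded it in 8 of 12 cultures, with values from 4.90 to 5.34. Its knockout differences were 0.13 ± 0.13 (mTERT) and -0.14 ± 0.13 (mTR), with overlap in both lines. Leaving out 1 array gave 0.062 (without mTERT WT culture 3) to 0.25 (without mTERT WT culture 1) in the mTERT line and -0.21 (without mTR KO culture 1) to -0.024 (without mTR KO culture 2) in the mTR line.

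Of all members, Pdha1, Pdhx and Dlat spanned the smallest range over the 12 cultures. Pdha1, the phosphorylated E1 alpha subunit and the target of all 4 kinases, lay between 10.66 and 10.94, with knockout differences of -0.02 ± 0.07 (mTERT) and -0.08 ± 0.07 (mTR). Dlat, the E2 acetyltransferase core, lay between 8.70 and 9.08, with differences of -0.003 ± 0.09 and -0.11 ± 0.09. Pdhx, which tethers the E3 enzyme to the core, lay between 6.27 and 6.58, with differences of 0.02 ± 0.08 and -0.07 ± 0.08. For these 3 genes every knockout overlapped its wild type and no limma adjusted p was under 0.859. In the mTR line, leaving out 1 array gave -0.13 (without mTR WT culture 2) to -0.018 (without mTR KO culture 2) for Pdha1, -0.16 (without mTR KO culture 3) to -0.031 (without mTR KO culture 1) for Dlat and -0.13 (without mTR KO culture 1) to -0.0057 (without mTR WT culture 3) for Pdhx.

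Pdhb, the E1 beta subunit, had the largest difference of any member relative to its error in the mTERT line. It measured 8.55, 8.63 and 8.70 in the mTERT wild type and 8.16, 8.45 and 8.64 in the mTERT knockout. The groups overlapped, but the knockout was lower at each culture number, by -0.39, -0.18 and -0.06. The mean difference was -0.21 ± 0.10 with an interval of -0.43 to 0.02 (limma adjusted p = 1), and it was -0.08 without mTERT KO culture 1 and -0.32 without mTERT KO culture 3. In the mTR line Pdhb measured 8.52, 8.42 and 8.54 in the wild type and 8.53, 8.50 and 8.46 in the knockout, a difference of 0.004 ± 0.10 (limma adjusted p = 0.998).

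**Figure D2:**
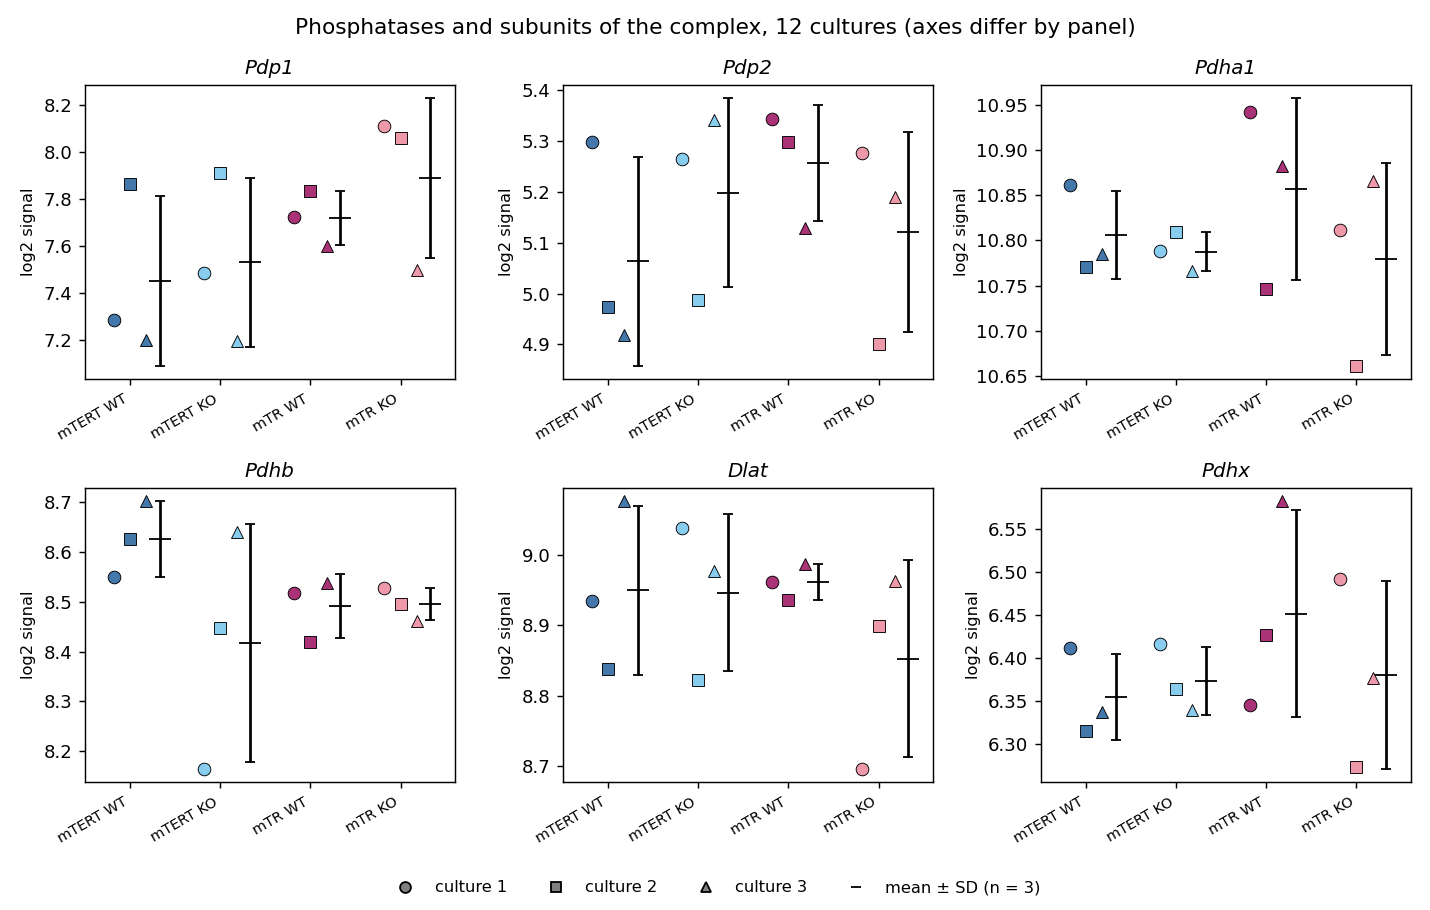
Log2 signal of the phosphatases Pdp1 and Pdp2 and of the complex subunits Pdha1, Pdhb, Dlat and Pdhx in each of the 12 cultures, 1 panel per gene with its own axis, marker shapes for the culture number and bars for mean ± SD of the 3 cultures in a group. Pdp1 is highest at culture 2 in both mTERT groups, and Pdhb in mTERT KO reaches down to 8.16.

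Read over all 10 genes, the knockout of mTERT called none at the 5% false discovery rate, where 1 of 28853 probe sets passed (0.00347%). No member had an unadjusted p under 0.05, against 1.92% of all probe sets, and for no member did the knockout and wild-type cultures fail to overlap, against 5.97%. The knockout of mTR called none of the 10 and none of all probe sets (0%), although 1679 probe sets (5.82%) had an unadjusted p under 0.05 by limma. There, 3 members were higher and 7 lower in the knockout, and the median over the 9 apart from Pdk4 was -0.07, beside 0.0009 for all probe sets. Knockout and wild type did not overlap for 2 of the 10, Pdk2 and Pdk4, both lower; this held for 6.07% of all probe sets in that direction, and Pdk4 was chosen on these values.

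Between the wild types, none of the 10 was called and 5 probe sets were (0.0173%). Pdk1 and Pdhb were higher in mTERT WT without overlap (5.91% of all probe sets) and Pdk2 and Pdk4 lower without overlap (7.14%). Pdhb differed there by 0.13 ± 0.10 (limma adjusted p = 0.852). Between the knockouts, none of the 10 was called, 1 probe set was (0.00347%), and no member's groups were free of overlap, against 7.25% of all probe sets. The plot of differences shows these 4 comparisons side by side; the 2 knockout comparisons share no culture with each other, but each shares cultures with the comparisons between lines.

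**Figure D3:**
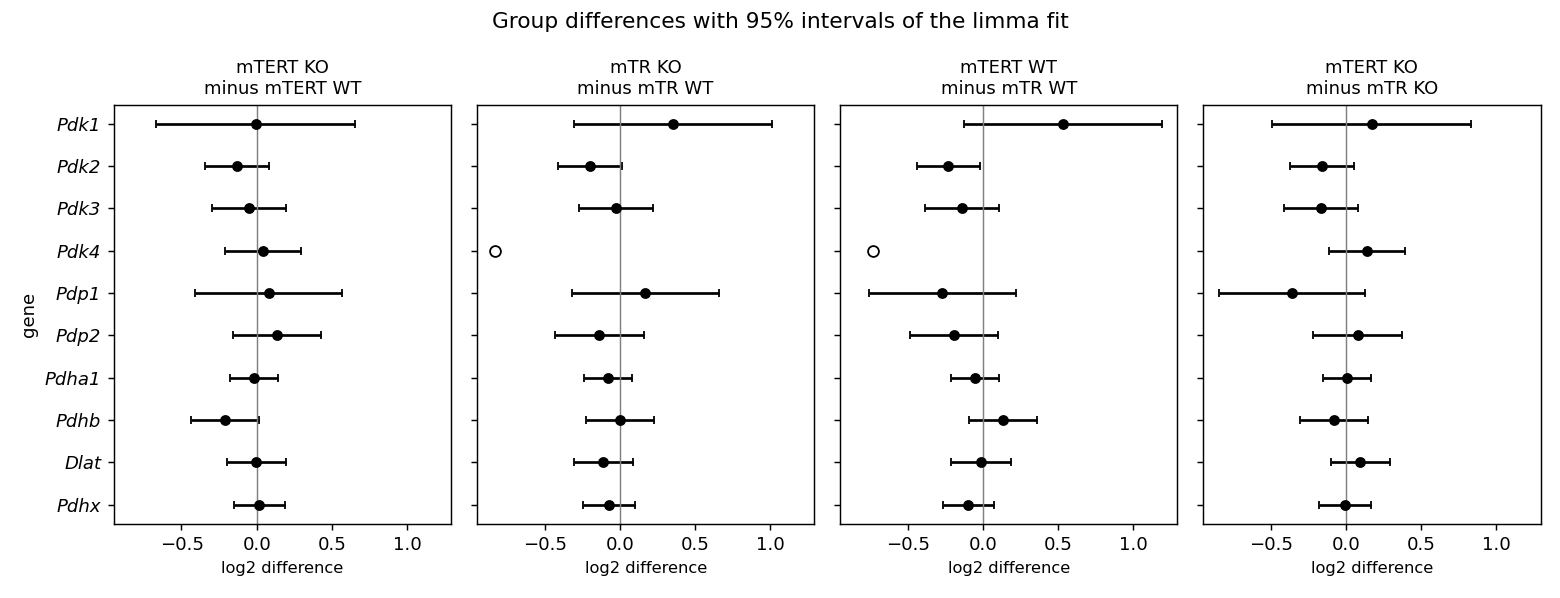
Difference in log2 signal for each of the 10 genes in 4 comparisons, with the 95% interval of the limma fit; the open circles for Pdk4 in the mTR KO minus mTR WT and mTERT WT minus mTR WT panels have no interval because those values chose the gene. Every closed point except Pdk2 between the wild types has an interval that includes 0, and Pdk4 lies at -0.83 and -0.73 in the panels that use mTR WT.

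In the mTERT line the knockout and wild-type cultures of the same number moved together, and for several members this shared variation was far larger than the genotype difference. Culture number held 92.1% of the variance of Pdk1 among these 6 cultures and genotype 0.00874%. For Pdp1 the shares were 96.1% and 1.80%. Pdk1 averaged 7.63, 8.28 and 7.49 over the knockout and wild type of cultures 1, 2 and 3, and Pdp1 averaged 7.38, 7.89 and 7.20, so that both were highest in culture 2. Number also held 86.2% for Pdhx, 80.5% for Dlat and 79.3% for Pdk3. By its 2 of 5 degrees of freedom alone number would hold 40% on average, and in the mTR line, where numbers were not taken as pairs, it held 76.3% for Pdha1, 72.9% for Pdk3, 65.0% for Pdp1 and 48.3% for Pdk1. In the mTERT line Pdk4, Pdha1 and Pdk2 were less tied to number, at 44.0%, 41.5% and 23.3%. Genotype held 2.80%, 8.11% and 38.3% of their variance there. In the mTR line number held 8.65% for Pdk4 and 30.2% for Pdk2. Genotype held 91.3% for Pdk4, which was chosen on its mTR WT values, and 44.6% for Pdk2.

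Members were also set against each other across the 12 cultures, as a description: the points share arrays, and in the mTERT line also culture numbers. Pdk1 and Pdp1, a kinase and a phosphatase of opposite effect, had r = 0.46 over the 12 cultures and r = 0.87 for deviations from the group means. Dlat ran against both, with r = -0.79 for deviations in each case. Pdk2 and Pdk4 had r = 0.73 over 12 cultures and 0.56 for deviations; without the 3 mTR WT cultures r was 0.29 over the other 9. Pdk1 and Pdk4 had r = -0.41 over 12 cultures and 0.08 for deviations, so their opposite order lay between groups and not between cultures of a group.

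Genes outside the 10 were taken from lists of the pathway, and those named were either taken by name whatever their values or had an unadjusted p under 0.05 in the comparison given. Among 13 regulators of Pdk4, none passed in any of the 4 comparisons. Foxo1 was the only one whose 3 mTR WT cultures lay above all 9 others, as held for 1.36% of all probe sets. FOXO1 is a forkhead transcription factor that is active when insulin signalling is low and is a known activator of Pdk4. Foxo1 measured 7.06, 7.31 and 7.29 in the mTR wild type and 6.69, 6.39 and 6.65 in the mTR knockout. It measured 6.35, 6.66 and 6.52 in the mTERT wild type and 6.07, 6.76 and 6.56 in the mTERT knockout. As for Pdk4, mTR WT stood apart and the mTERT groups interleaved. Foxo1 was 0.64 ± 0.16 (SE) lower in mTR KO than in mTR WT (limma adjusted p = 0.839) and 0.71 ± 0.16 lower in mTERT WT than in mTR WT (limma adjusted p = 0.373). The mTERT KO minus mTERT WT difference was -0.05 ± 0.16 (limma adjusted p = 1). Across the 12 cultures Foxo1 and Pdk4 had r = 0.89 (Spearman's rho 0.77), and r was 0.67 over the 9 cultures outside mTR WT. The r over 12 cultures includes the mTR WT values that chose Pdk4 and is a description only. Whether FOXO1 had a part in the Pdk4 values was not tested.

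The other regulators did not share this pattern. In mTR KO minus mTR WT, the glucocorticoid receptor Nr3c1 differed by 0.11 ± 0.10 (0.022 without mTR WT culture 3, 0.18 without mTR KO culture 3) and Ppard by -0.10 ± 0.08 (-0.044 without mTR WT culture 2). Ppara was below background in every culture (difference 0.09 ± 0.08), and the coactivator Ppargc1a exceeded background in 1 of 12, with a difference of -0.24 ± 0.15 that was -0.098 without mTR WT culture 2 and -0.37 without mTR WT culture 1. Foxo3, a forkhead relative, was 0.22 ± 0.09 higher in mTERT KO than in mTR KO (limma adjusted p = 0.9999). Of 16 FOXO targets none passed, and in the mTR line 6 were higher and 10 lower in the knockout (median -0.08). Irs2, an insulin receptor substrate and FOXO target, had its 3 mTR WT cultures, at 6.90, 6.91 and 6.62, above the other 9, which lay between 5.92 and 6.58. Such a position held for 1.36% of all probe sets. Irs2 was 0.44 ± 0.17 lower in mTR KO (limma adjusted p = 0.839), but its r with Pdk4 was -0.19 outside mTR WT. None of 15 glucocorticoid-responsive genes passed either.

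**Figure D4:**
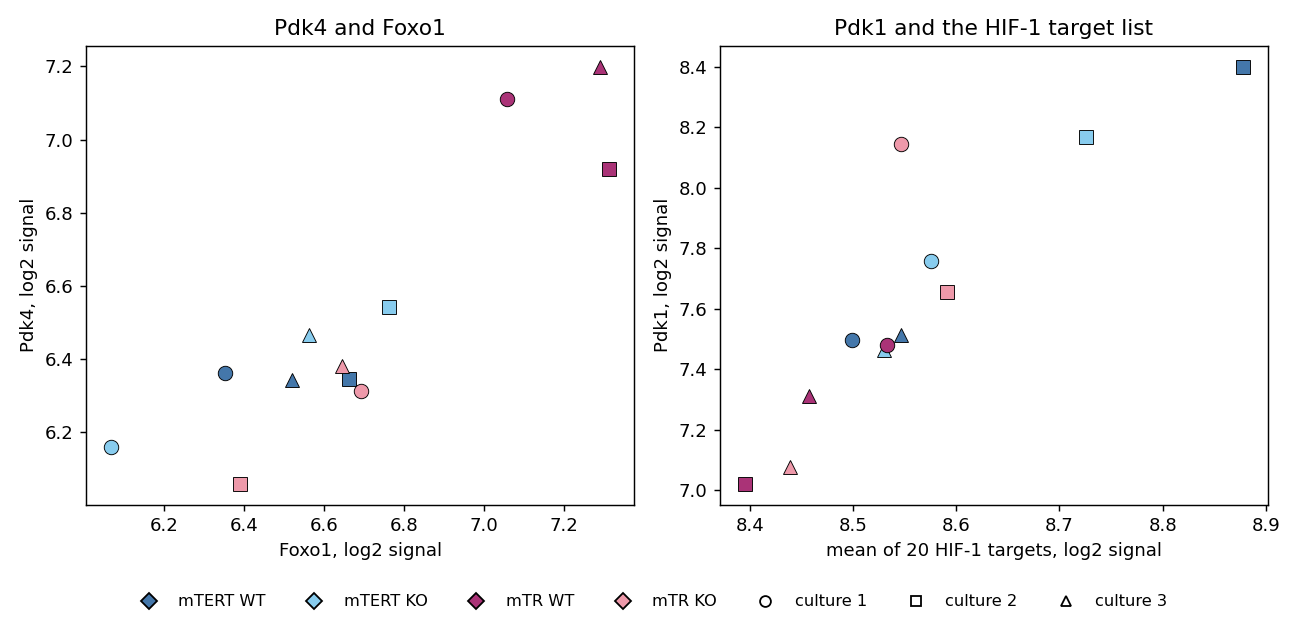
Left, Pdk4 against Foxo1, and right, Pdk1 against the mean of 20 HIF-1 targets, both in log2 signal with 1 point per culture; colour gives the group and shape the culture number. The 3 mTR WT cultures form the upper right of the Foxo1 panel, while in the HIF-1 panel the mTERT WT and mTERT KO cultures of number 2 are at the top.

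Pdk4 is a known target of PPAR factors together with the enzymes of fatty acid oxidation. Of 19 such genes measured, none passed in any comparison. In mTR KO against mTR WT, 5 were higher and 14 lower, with a median of -0.10 beside 0.0009 for all probe sets. The differences ran from -0.63 to 0.51, and the genes named below for this line were all among the lower ones. Cpt1a, which admits long-chain fatty acids to the mitochondrion, measured 9.06, 9.36 and 9.35 in the mTR wild type and 8.62, 9.01 and 9.11 in the mTR knockout, a difference of -0.34 ± 0.13 (limma adjusted p = 0.839). The Cpt1a groups overlapped, and the difference was -0.20 without mTR KO culture 1. Acadl, the long-chain acyl-CoA dehydrogenase, differed by -0.20 ± 0.09 (limma adjusted p = 0.839). Angptl4, a secreted PPAR target, differed by -0.30 ± 0.28, and by -0.65 without mTR WT culture 1 and -0.063 without mTR WT culture 2. In the mTERT line the same list was divided, with 10 higher and 9 lower (median 0.006); Cpt1a differed there by -0.23 ± 0.13 (limma adjusted p = 1) and Cpt2 by 0.22 ± 0.10 (limma adjusted p = 1).

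Across the cultures Pdk1 moved with the hypoxia genes. The mean of 20 HIF-1 targets had r = 0.89 with Pdk1 (Spearman's rho 0.95), 0.80 without mTERT WT culture 2 and mTERT KO culture 2, and -0.36 with Pdk4. Of the 20, 18 had a positive r with Pdk1, with a median of 0.61 beside -0.07 over all probe sets of 1 symbol above background. Bnip3, a mitophagy receptor, Adm, which encodes adrenomedullin, and Pfkfb3, a glycolytic activator, had the highest r of the list, at 0.88, 0.82 and 0.82. Pdk1 was not tied to this list alone. Its r was 0.66 with the mean of the glucocorticoid-responsive genes and 0.64 with that of the fibroblast markers. With the mean of the citric acid cycle genes it was -0.77. The target mean was 8.88 in mTERT WT culture 2 and 8.73 in mTERT KO culture 2, and between 8.40 and 8.59 in the other 10 cultures. Ero1l, an oxidoreductase of the endoplasmic reticulum, was the list member whose mTR WT cultures lay below all others, as held for 0.839% of all probe sets. It was 0.29 ± 0.09 higher in mTR KO (limma adjusted p = 0.839) and 0.39 ± 0.09 higher in mTERT WT (limma adjusted p = 0.400). No HIF-1 target passed in any comparison; 16 were higher and 4 lower in mTERT WT than in mTR WT, with a median of 0.20.

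Upstream and downstream of the complex, no gene passed. Of 13 glycolysis genes, 8 were higher and 5 lower in mTR KO than in mTR WT (median 0.05), and 11 were higher and 2 lower in mTERT WT than in mTR WT (median 0.16). Pfkl, a phosphofructokinase, was 0.30 ± 0.13 higher in the latter (limma adjusted p = 0.714), and 0.17 higher without mTERT WT culture 2. Ldha, which turns pyruvate into lactate, differed by 0.07 ± 0.13 in the mTR line and Pkm, which makes pyruvate, by 0.02 ± 0.10. Me3, a mitochondrial malic enzyme, was 0.23 ± 0.07 lower in mTERT WT than in mTR WT (limma adjusted p = 0.538), but its values, 4.70 to 5.11, exceeded background in only 4 of 12 cultures. Of 16 citric acid cycle genes, 3 were higher and 13 lower in mTR KO (median -0.06). Sdha, the flavoprotein of succinate dehydrogenase, was 0.27 ± 0.08 lower in mTERT KO than in mTERT WT (limma adjusted p = 1). Its groups did not overlap, as held for 5.97% of all probe sets in either direction. Sdha was also 0.33 ± 0.08 lower in mTERT KO than in mTR KO (limma adjusted p = 0.9999). The reason for these differences was not tested.

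Of the partners of the complex, 8 of 11 listed genes were measured and none passed. Dld, the E3 subunit shared with related complexes, differed by 0.02 ± 0.07 in the mTR line, and by 0.052 without mTR KO culture 1. Lipt1, a lipoyltransferase, was 0.40 ± 0.07 lower in mTR KO than in mTR WT (limma adjusted p = 0.573). Its groups did not overlap, as held for 6.07% of all probe sets in that direction. Nfu1, an iron-sulfur carrier needed for lipoate synthesis, was 0.19 ± 0.09 higher in mTERT KO than in mTERT WT (limma adjusted p = 1), and 0.13 higher without mTERT KO culture 1.

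Genes with a profile like that of Pdk4 were ranked by r over the 12 cultures. The ranking ran over 13155 probe sets of 1 symbol above background, where the median r was 0.05 and 3.52% exceeded 0.7. The 8 highest were Stard10 (0.94), a lipid-transfer protein, Cnnm2 (0.93), Smoc2 (0.93), a matricellular protein, Lmo4 (0.91), a LIM-domain cofactor, Chn1 (0.91), Pef1 (0.90), Tmem185a (0.90) and Klhl26 (0.90). Of these, all but Pef1 and Tmem185a had their mTR WT cultures above the other 9. Without the mTR WT cultures r was lower for each, highest for Tmem185a (0.87) and Lmo4 (0.83) and lowest for Smoc2 (0.43). For Stard10, Cnnm2, Chn1, Pef1 and Klhl26 it was then 0.64 to 0.72. The 3 lowest over 12 cultures were Cd2ap (-0.90), an actin adaptor, Naa15 (-0.87), a subunit of an N-terminal acetyltransferase, and Eea1 (-0.85), an endosomal tether, each with mTR WT below the other 9. By deviations from the group means the list was another: Cacna1h (0.96), App (0.94), Gdf7 (0.93), Hmcn1 (0.92), Hibadh (0.91), Zdhhc9 (0.90), Tmem185a (0.90) and Csnk2a1 (0.87), with Tmem185a in both. Hmcn1 had 77 probe sets, and Hibadh and Csnk2a1 had 2 each. For these genes the r given is the highest among their probe sets above background, and the r of their other probe sets is not given.

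Pdk4 is abundant in muscle and fat, so markers of those tissues and of macrophages are given beside it. Muscle markers were above background on average for 5 of 13 genes, with list means of 5.68 to 5.81 in mTR WT and 5.30 to 6.11 in the other groups. Adipocyte markers were above background for 4 of 9, with list means of 5.04 to 5.17 in mTR WT and 4.96 to 5.29 elsewhere. Neither list mean was set apart in mTR WT, and their r with Pdk4 was -0.05 and 0.10. In mTR KO against mTR WT, 6 of the 9 adipocyte markers were higher and 3 lower, with a median of 0.05 and none past the threshold. Fabp4, which went against that median, is a fatty-acid binding protein and PPAR target. It measured 6.43, 5.85 and 5.92 in mTR WT, above all other cultures, as held for 1.36% of all probe sets. It was 0.53 ± 0.21 lower in mTR KO (limma adjusted p = 0.839), and 0.35 lower without mTR WT culture 1. Macrophage markers were higher in mTR KO than in mTR WT for 14 of 14 genes, with a median of 0.75, and higher in mTERT WT than in mTR WT for 14 of 14, with a median of 0.79. These are the comparisons in which Pdk4 stood apart. In mTERT KO against mTERT WT, 13 of 14 were lower (median -0.14), and in mTERT KO against mTR KO 10 of 14 were lower (median -0.06); no macrophage marker passed in any comparison. Their list means ran from 6.64 to 8.66 in mTR WT and from 7.42 to 9.50 in the other 9 cultures, with overlap. Their r with Pdk4 was -0.29, and their part in the Pdk4 values was not tested.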

How the data were processed

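Total RNA from 12 fibroblast cultures, 3 in each of 4 groups, was hybridised to Affymetrix Mouse Gene arrays, 1 array per culture. The deposited values were on the log2 scale, from the authors' processing; GCOS 1.4, Affymetrix Expression Console and PLIER are named per the submitters' processing notes. The normalization and genome build were not given in the sources used here. A difference of log2 values is a log ratio, and an array's levels cannot be compared between genes. Of 28853 probe sets, 21789 carried 1 symbol, 1621 several and 5443 none; names came from the platform annotation.

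All probe sets and all 12 arrays were fitted together with limma 3.58.1 in R 4.3.3 (4 group means, 1 shared spread with 8 residual and 3.14 prior degrees of freedom), with Benjamini-Hochberg adjustment over all probe sets of a comparison and a threshold of 5%. No further normalization was applied. The number of arrays limits the precision. Figures were drawn with matplotlib 3.10.9 under Python 3.11.15. The fit was tested on simulated data.

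The members and lists were chosen with earlier results of these data known. Named genes were the 10 members, a fixed set of related genes, list members with an unadjusted p under 0.05, and the genes most and least like Pdk4 (8 and 3 by r over the arrays, and 8 by deviations from group means).

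Replicate numbers come from the labels; the study set knockout and wild-type littermates side by side, but the labels do not tie a litter to a number. In the mTERT line same-numbered cultures deviated together over 14426 brighter probe sets (r = 0.67, 0.73 and 0.79, against -0.53 to -0.18 for different numbers), so these numbers pair the cultures. In the mTR line the values were -0.16, 0.29 and -0.38, and the numbers were not taken as pairs. The p-values measure the spread between these cultures, and neither the main fit nor the exact test used the mTERT pairs. The protein sequences were not used here.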

Additional observations from a re-analysis of the deposited data

How the results depend on the processing

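The alternatives were other normalizations, blocks, filters, variance models, array weights, fewer arrays and leaving out each array. The count of the 10 members past 5% was 0 under every alternative in every comparison. Pdk4 in mTR KO minus mTR WT stayed between -0.94 and -0.73, in mTERT WT minus mTR WT between -0.81 and -0.67, and in mTERT KO minus mTR KO between 0.04 and 0.25. The ranges that involve mTR WT use the values that chose Pdk4 and are no test. The count over all probe sets past 5% moved more. For mTERT KO against mTERT WT it was 1, and 0 with quantile normalization, 0 with only the compared arrays and 0 to 2 with an array left out. For mTR KO against mTR WT it was 0, and 0 to 3 with an array left out; for the mean knockout effect it was 0, and 0 to 1. For mTERT WT against mTR WT it was 5, and 0 with quantile normalization, 9 with array weights, 1 with only the compared arrays and 0 to 11 with an array left out. For mTERT KO against mTR KO it was 1, 5 with only the compared arrays and 0 to 8 with an array left out.

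With the replicate number as a block within each line, the count for mTERT KO against mTERT WT was 0; as a block across both lines, the count for mTERT WT against mTR WT was 9. The block changed no other call. The block in the mTERT line only was chosen after seeing the data. Contrasts between lines cannot be fitted with the block within each line. The alternative of other probe sets was not run, because each member has 1.

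Of the values of single genes, 1607 kept their sign and 39 changed it. With array weights Dlat became 0.017 (mTERT line), Pdhb -0.0092 (mTR line) and Pdhx 0.046 (between knockouts). With median centring Pdhb became -0.0088 (mTR line), and with quantile normalization Dlat became 0.017 (between wild types). With 1 array left out, the mTERT line gave -0.19 to 0.29 for Pdk1, -0.094 to 0.0028 for Pdk3, -0.037 to 0.16 for Pdk4, -0.11 to 0.29 for Pdp1, -0.036 to 0.0096 for Pdha1, -0.059 to 0.060 for Dlat, -0.0031 to 0.047 for Pdhx and -0.20 to 0.15 for Foxo1. The mTR line gave -0.13 to 0.062 for Pdk3, -0.033 to 0.026 for Pdhb, -0.045 to 0.14 for Ldha and -0.049 to 0.068 for Pkm. Between wild types the range was -0.076 to 0.044 for Dlat. Between knockouts the ranges were -0.10 to 0.43 for Pdk1, -0.034 to 0.18 for Pdp2, -0.051 to 0.051 for Pdha1, -0.19 to 0.048 for Pdhb, -0.061 to 0.049 for Pdhx and -0.26 to 0.086 for Foxo1. Ranked by Spearman's rho, 2 of the 8 genes most like Pdk4 stayed among the first 8 and 6 among the first 50.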
